A study of Mus musculus with 6 samples.

Results

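Genes of de novo fatty acid synthesis, 10 in number and called the lipogenic genes here, were followed in RNA-seq of interscapular brown fat, taken as the whole depot from newborn mice. They are the rows of the deposited table with the symbols Fasn, Acaca, Acacb, Acly, Scd1, Scd2, Srebf1, Mlxipl, Me1 and Fads2, which is 10 of 19241 genes. All 10 passed the filter on low values and were among the 13331 genes tested. The 6 libraries are 3 from WT mice, labelled with the genotype Fstl1-floxed, and 3 from KO mice, labelled Myf5-Fstl1 KO. All 6 are newborn, and the labels name no treatment, sex, litter, exact age or strain. Follistatin-like 1, the product of Fstl1, is a secreted glycoprotein, and Myf5 is expressed in precursors of skeletal muscle and of much of the interscapular brown fat. A deletion driven by Myf5 therefore reaches muscle as well as brown fat precursors, and the labels do not say which Cre allele was used or whether the WT mice carried one. The labels also do not say that each library is a separate animal, so p-values measure the spread between these libraries, which may be partly technical.

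In de novo lipogenesis, citrate exported from mitochondria is cleaved to acetyl-CoA, carboxylated to malonyl-CoA and assembled into palmitate, which desaturases and elongases then modify. SREBP-1, matured from a membrane-bound precursor, and ChREBP, which responds to glucose metabolites, are the main transcription factors that turn these genes on. Brown fat is known to run this pathway alongside fatty acid oxidation, and its activity follows feeding, insulin and cold.

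Levels are given in FPKM, which count fragments relative to transcript length and library size, so they can be compared between genes. A log2 fold change is the mean of log2(FPKM + 1) in KO minus that in WT, which understates changes of low genes. It was tested with limma across all 13331 genes, with Benjamini-Hochberg adjusted p-values and a threshold of 0.05.

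The steps between low values put the depth at 13840000 to 15080000 reads per library. Fstl1 lay at 55.5, 130.04 and 54.4 FPKM in the WT libraries and at 7.93, 13.1 and 8.77 FPKM in the KO libraries, so the labels and the targeted gene match. Sex coincided with genotype: Xist lay at 44.8 FPKM or more in each WT library and at 0.92 FPKM or less in each KO library, and the Y-linked Eif2s3y at 83.7 FPKM or more in KO and 0.08 FPKM or less in WT. Genotype and sex cannot be told apart in any difference below. The depot had the markers of fat: the lowest level in any library was 14000 FPKM for Fabp4 and 889.1 FPKM for Adipoq, and Fabp4 made up most of the summed level of 10 adipocyte markers, 18632 to 22227 FPKM in WT and 18947 to 20956 FPKM in KO. Of these 10 markers, 7 were below 0 in log2 fold change, and Adipoq (0.24), Pparg (0.20) and Cidea (0.13) were above. The groups did not overlap in 3 markers, against 24.9% of all tested genes. The threshold was passed by 2, both lower in KO, against 2.21% of all tested genes. Plin1, which coats the lipid droplet, fell from 173.8, 309.3 and 253.9 FPKM in WT replicates 1, 2 and 3 to 106.01, 76.6 and 96.9 FPKM in the KO ones (limma, log2 fold change −1.36, adjusted p 0.0267). Lep, the gene of leptin, was low throughout and fell from 0.91, 2.22 and 0.98 FPKM to 0.11, 0.13 and 0.06 FPKM (limma, log2 fold change −1.07, adjusted p 0.0423). Cidec, a lipid droplet fusion protein, lay at 337.6 to 431.5 FPKM in WT and 285.5 to 334.5 FPKM in KO without passing (limma, adjusted p 0.350). The calls of Plin1 and Lep were lost without the filter on low values, with the replicate block and without WT replicate 2, WT replicate 3, KO replicate 2 or KO replicate 3, and that of Lep also without KO replicate 1 and with scaling to a common sum (limma, adjusted p 0.0506 to 0.118). The part of these markers in the lipogenic values was not tested. In a bulk sample, the number of adipocytes and the level of a gene per adipocyte cannot be told apart. Both groups held 1 library that stood apart in another cell type's markers. The summed level of 10 skeletal muscle markers was 330.9 FPKM in KO replicate 1 and 1321 to 1930 FPKM in the other 5 libraries, with 10 of 10 below 0 and 0 past the threshold (limma, with 1 at an unadjusted p under 0.05). That of 10 erythroid markers was 6452 FPKM in WT replicate 3 and 1345 to 2196 FPKM in the others.

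The genes are spread over several chromosomes of GRCm38, the assembly of the build mm10 that the submitters' processing notes name. Fasn (chromosome 11, 120805958 to 120825166, minus strand), Acaca (chromosome 11, 84129635 to 84401651, plus strand), Acly (chromosome 11, 100476352 to 100528000, minus strand) and Srebf1 (chromosome 11, 60199084 to 60224186, minus strand) share chromosome 11. Scd1 (44394450 to 44407709, minus strand) and Scd2 (44293676 to 44306864, plus strand) lie near each other on chromosome 19, with Scd4 between them, and Fads2 (10062765 to 10101503, minus strand) is on the same chromosome. Acacb (114146321 to 114250761, plus strand) and Mlxipl (135089890 to 135139768, plus strand) are on chromosome 5, and Me1 (86581363 to 86695914, minus strand) is on chromosome 9. They are all protein-coding. The table sums 2 transcripts each for Acly, Srebf1 and Me1 and 1 for the others, so the SREBP-1a and SREBP-1c forms of Srebf1 were not separated.

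RefSeq start sites on GRCm38.p6 were used for 8 of the 10 genes, in 12 windows. The 250 bases before a start site are shown for Fasn, whose product makes the palmitate, and for the 3 genes with the largest absolute log2 fold change, Srebf1, Mlxipl and Acacb, in the windows that hold at least 1 of the motifs searched. Apart from the upstream Mlxipl window, each window shown lies within the span of its gene given above, before a start site inside it. In the Acacb window 9 bases lie in GENCODE exons. Capitals mark CCAAT, which NF-Y binds, TCACNCCAC, a sterol response element, and CACGTG, an E-box, each on either strand, so that CCAAT on the opposite strand reads ATTGG.
Fasn, chr11:120824548-120824797, minus strand: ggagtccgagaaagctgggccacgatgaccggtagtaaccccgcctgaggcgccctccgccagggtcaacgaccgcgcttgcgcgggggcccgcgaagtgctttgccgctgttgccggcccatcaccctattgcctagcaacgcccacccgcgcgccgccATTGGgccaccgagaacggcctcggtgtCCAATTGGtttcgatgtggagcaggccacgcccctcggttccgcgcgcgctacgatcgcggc
Srebf1, chr11:60222582-60222831, minus strand: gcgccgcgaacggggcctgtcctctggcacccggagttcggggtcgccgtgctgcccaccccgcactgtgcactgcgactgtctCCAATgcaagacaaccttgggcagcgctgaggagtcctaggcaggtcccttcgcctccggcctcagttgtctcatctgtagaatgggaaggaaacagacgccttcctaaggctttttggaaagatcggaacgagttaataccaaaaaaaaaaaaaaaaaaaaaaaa
Srebf1, chr11:60210472-60210721, minus strand: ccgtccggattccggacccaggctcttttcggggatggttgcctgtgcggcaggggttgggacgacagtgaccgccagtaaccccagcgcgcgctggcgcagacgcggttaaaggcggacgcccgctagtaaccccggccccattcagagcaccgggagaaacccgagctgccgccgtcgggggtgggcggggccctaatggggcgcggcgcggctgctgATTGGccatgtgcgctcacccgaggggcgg
Mlxipl, chr5:135089640-135089889, plus strand: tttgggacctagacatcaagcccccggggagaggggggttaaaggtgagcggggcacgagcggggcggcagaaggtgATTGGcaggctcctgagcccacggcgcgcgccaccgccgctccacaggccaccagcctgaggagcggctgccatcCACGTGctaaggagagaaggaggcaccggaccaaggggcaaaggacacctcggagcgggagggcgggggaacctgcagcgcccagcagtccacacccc
Mlxipl, chr5:135106641-135106890, plus strand: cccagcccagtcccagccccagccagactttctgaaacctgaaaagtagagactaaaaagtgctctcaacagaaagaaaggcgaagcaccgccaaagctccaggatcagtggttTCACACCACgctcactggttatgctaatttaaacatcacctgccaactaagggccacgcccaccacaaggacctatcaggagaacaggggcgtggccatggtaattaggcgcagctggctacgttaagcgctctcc
Acacb, chr5:114165268-114165517, plus strand: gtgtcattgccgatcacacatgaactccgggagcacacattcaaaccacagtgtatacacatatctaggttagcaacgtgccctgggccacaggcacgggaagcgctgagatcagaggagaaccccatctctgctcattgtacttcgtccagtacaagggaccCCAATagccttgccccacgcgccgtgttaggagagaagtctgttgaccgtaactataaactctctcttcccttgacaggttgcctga
The Fasn window holds 3 CCAAT matches, of which the pair beginning 62 and 59 bases before the start overlap on opposite strands. Across the 12 windows, 6 held CCAAT, 1 the sterol response element and 1 the E-box. Of all 32851 windows of this length, 33.8% held CCAAT, 1.05% the sterol response element and 6.02% the E-box. Both Srebf1 windows shown hold 1 CCAAT each. The upstream Mlxipl window holds CCAAT and the E-box, and the downstream one holds the sterol response element, 136 bases before that start. A match is a stretch of letters and not a measured binding site.

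None of the 10 lipogenic genes passed the threshold between KO and WT (limma, 0 of 10, with 1 at an unadjusted p under 0.05). Of all tested genes, 2.21% passed and 19.2% had an unadjusted p under 0.05. The fold changes were below 0 in 6 genes and above 0 in 4, with a median of −0.05 beside 0.01 over all tested genes, of which 48.4% were below 0. The KO and WT values did not overlap in 1 of the 10 genes, Srebf1, against 24.9% of all tested genes, and 11.4% when only those lower in KO are counted. The transcription factors Srebf1 and Mlxipl had the lowest fold changes, both below 0. The enzymes were split: Fasn, Acacb, Scd1 and Scd2 lay above 0 and Acaca, Acly, Me1 and Fads2 below, and the difference between enzymes and transcription factors was not tested.

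**Figure D1:**
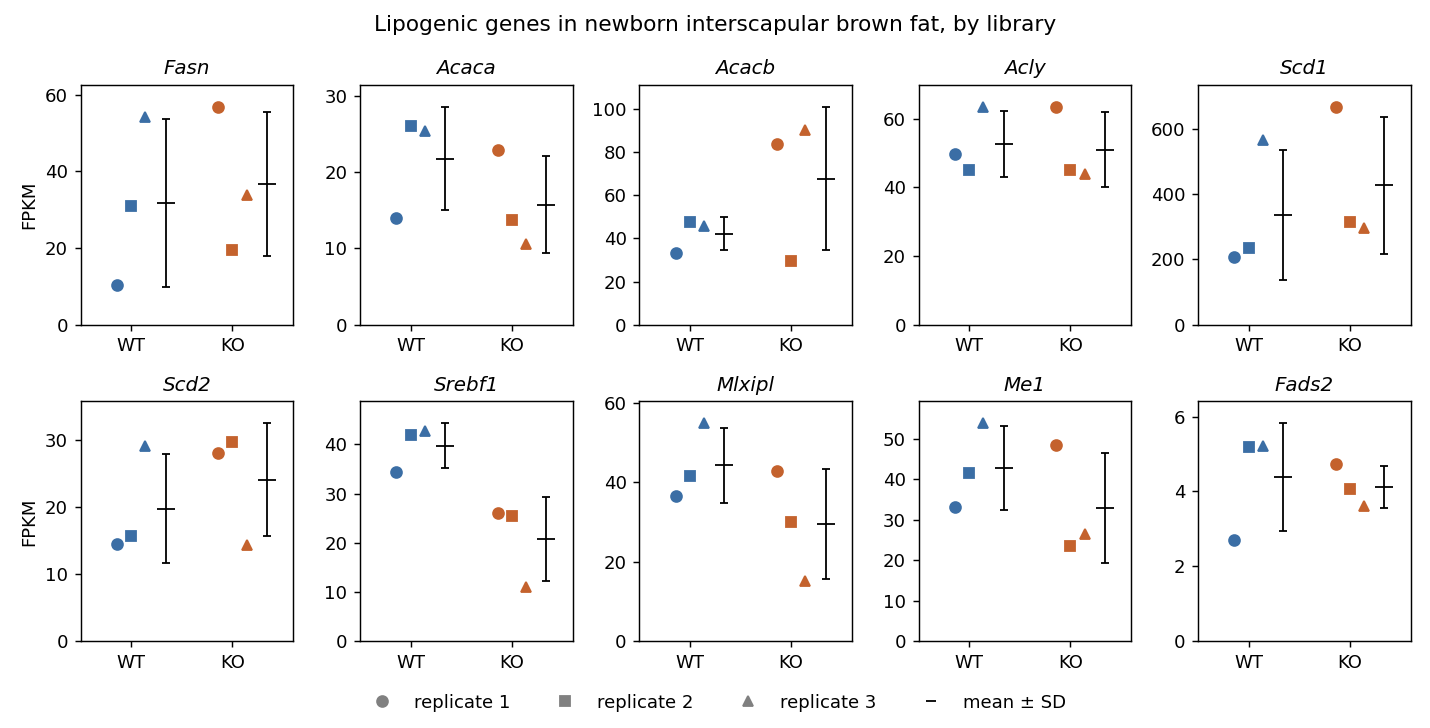
FPKM of each lipogenic gene in the 3 WT (blue) and 3 KO (orange) libraries, on axes that start at 0, with the group mean and SD in black and the marker shape giving the replicate. Srebf1 is the only panel in which the groups do not overlap, with KO at 10.97 to 25.96 FPKM and WT at 34.4 to 42.8 FPKM.

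Srebf1, which encodes the precursor of SREBP-1, had the largest difference of the 10. In replicates 1, 2 and 3 it lay at 34.4, 41.9 and 42.8 FPKM for WT, against 25.96, 25.5 and 10.97 FPKM for KO. Values of other genes follow the same order of replicates. Every KO library was below every WT library, and KO replicate 3 was the lowest by a wide margin. The means were 39.7 ± 4.58 FPKM in WT and 20.8 ± 8.53 FPKM in KO (SD, n = 3 each), so the KO mean was 52.4% of that in WT. The log2 fold change was −0.99 (limma, SE 0.29, 95% interval −1.65 to −0.32, unadjusted p 0.0086, adjusted p 0.118), which did not pass. Without KO replicate 3 it was −0.60 (limma, adjusted p 0.153).

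Mlxipl encodes ChREBP. Its level was 36.6, 41.5 and 54.9 FPKM in the 3 WT libraries, against 42.9, 30.1 and 15.2 FPKM in the KO ones. KO replicate 1 lay inside the WT range and the other KO libraries below it. The means were 44.3 ± 9.46 and 29.4 ± 13.8 FPKM (SD, n = 3), and the log2 fold change was −0.67 (limma, SE 0.33, 95% interval −1.41 to 0.07, adjusted p 0.307). It was −0.99 with KO replicate 1 left out (limma, adjusted p 0.163) and −0.27 with KO replicate 3 left out (0.607). KO replicate 3 was the lowest library for both transcription factors.

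At the head of the pathway, Acly, which cleaves citrate to cytosolic acetyl-CoA, had the lowest spread within groups of the 10. It lay at 49.7, 45.01 and 63.4 FPKM in the 3 WT libraries, against 63.5, 45.2 and 43.99 FPKM in the KO ones. The groups covered nearly the same range, and the log2 fold change was −0.06 (limma, SE 0.19, 95% interval −0.49 to 0.38, adjusted p 0.911). Me1, the cytosolic malic enzyme that yields NADPH for synthesis, lay at 33.2, 41.4 and 53.8 FPKM in the 3 WT libraries, against 48.5, 23.6 and 26.6 FPKM in the KO ones. KO replicates 2 and 3 were below every WT library, but KO replicate 1 was above WT replicates 1 and 2 (limma, log2 fold change −0.41, 95% interval −1.04 to 0.21, adjusted p 0.451). Leaving out KO replicate 1 gave a log2 fold change of −0.72 for Me1 and leaving out KO replicate 2 one of −0.22, the ends of the range over the 6 such fits.

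The pair of acetyl-CoA carboxylases pointed in opposite directions without either passing. Acaca encodes the cytosolic enzyme whose malonyl-CoA feeds synthesis. It lay at 13.9, 25.98 and 25.4 FPKM in the 3 WT libraries, against 22.8, 13.8 and 10.6 FPKM in the KO ones (limma, log2 fold change −0.46, 95% interval −1.15 to 0.23, adjusted p 0.447). The ends of that range for Acaca were −0.75 (KO replicate 1 left out) and −0.23 (KO replicate 3 left out). Acacb encodes the form at the mitochondrial outer membrane, whose malonyl-CoA restrains fatty acid entry for oxidation. It lay at 33.4, 47.5 and 45.8 FPKM in the 3 WT libraries, against 83.6, 29.5 and 90.3 FPKM in the KO ones. KO replicates 1 and 3 were above every WT library and KO replicate 2 was below all of them (limma, log2 fold change 0.53, 95% interval −0.32 to 1.39, adjusted p 0.478). The log2 fold change of Acacb was 0.25 without KO replicate 3 (limma, adjusted p 0.804), 0.31 without KO replicate 1 (0.759) and 1.04 without KO replicate 2 (0.0721). The ratio of Acaca to Acacb within a library, which does not depend on how the library was scaled, was 0.417, 0.548 and 0.554 in WT and 0.273, 0.466 and 0.117 in KO. KO replicate 2 lay among the WT libraries. The mean log2 ratio was −0.99 ± 0.23 in WT and −2.02 ± 1.003 in KO (SD, n = 3), a difference of −1.03 (exact two-sided permutation test, p 0.2; 3 libraries against 3 cannot give less than 0.1). Without KO replicate 3 the difference was −0.49.

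Fasn, the multienzyme that builds palmitate, was the most variable of the 10 within groups. It lay at 10.3, 30.8 and 54.2 FPKM in the 3 WT libraries, against 56.8, 19.5 and 33.9 FPKM in the KO ones. The WT libraries alone spanned 5.27-fold and held both the lowest value and one close to the highest. The means were 31.8 ± 21.96 and 36.8 ± 18.8 FPKM (SD, n = 3). The log2 fold change was 0.36 (limma, SE 0.55, 95% interval −0.89 to 1.599, adjusted p 0.773), and the interval leaves room for a change of either sign. Its sign turned without WT replicate 1 (−0.28) or without KO replicate 1 (−0.01). Leaving out WT replicate 3 gave 0.87 (limma, adjusted p 0.473).

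The desaturases Scd1 and Scd2 place the double bond that turns stearate and palmitate into monounsaturated fatty acids. Scd1 was the most abundant of the 10 genes in every library, at 206.6, 234.2 and 564.6 FPKM in the 3 WT libraries, against 667.1, 315.0 and 296.8 FPKM in the KO ones. WT replicate 3 and KO replicate 1 stood well above the other 4 libraries (limma, log2 fold change 0.40, 95% interval −0.54 to 1.33, adjusted p 0.645). With 1 library left out the log2 fold change of Scd1 ran from 0.02 without KO replicate 1 to 0.85 without WT replicate 3 (limma, unadjusted p 0.0399, adjusted p 0.293). Scd2 lay at 14.6, 15.7 and 29.1 FPKM in the 3 WT libraries, against 28.2, 29.7 and 14.4 FPKM in the KO ones. Here 3 libraries lay near 29 FPKM and 3 near 15 FPKM, and both levels occurred in both groups (limma, log2 fold change 0.27, 95% interval −0.45 to 0.9996, adjusted p 0.688). For Scd2 the range was 0.097, with KO replicate 2 left out, to 0.59, with KO replicate 3 left out (limma, adjusted p 0.364). The ratio of Scd1 to Scd2 was 14.2, 14.96 and 19.4 in WT and 23.7, 10.6 and 20.6 in KO, a difference of 0.11 in mean log2 ratio (exact two-sided permutation test, p 0.8). The coding sequences of Scd1 (1065 nt) and Scd2 (1074 nt) are 89.6% identical in GENCODE. The rest of the transcripts, whose shortest matched lengths are 4832 and 5455 nt, was not compared. Whether reads were assigned to the wrong gene was not tested, and the counting rule is not given in the sources used here. The related neighbours Scd3 and Scd4 were low, at 0.69 to 2.91 FPKM and 0.09 to 0.30 FPKM.

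Fads2, the first desaturase of polyunsaturated fatty acid synthesis, was the least abundant of the 10, at 2.71, 5.20 and 5.22 FPKM in the 3 WT libraries, against 4.72, 4.06 and 3.60 FPKM in the KO ones. All 3 KO libraries lay inside the WT range (limma, log2 fold change −0.03, 95% interval −0.53 to 0.47, adjusted p 0.955). By the estimated depth and its shortest matched transcript, these values rest on about 124 to 247 reads.

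**Figure D2:**
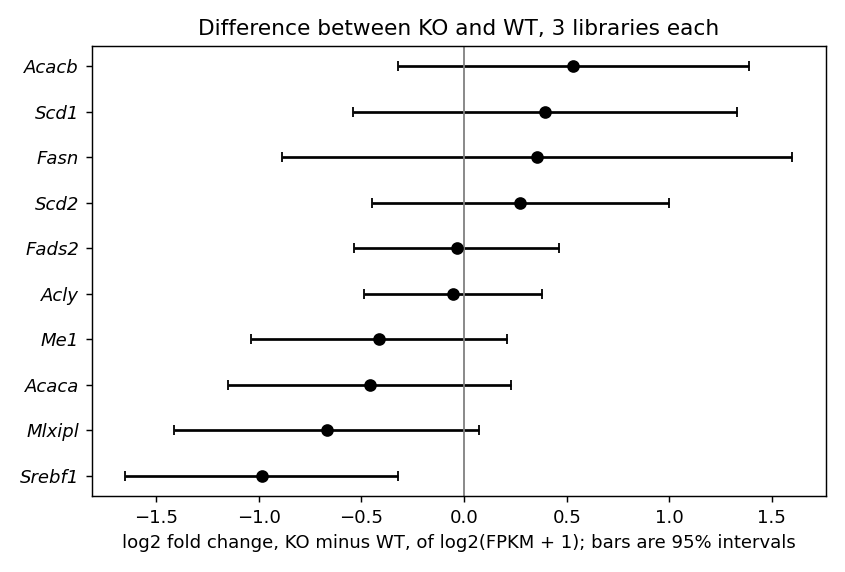
Log2 fold change of each lipogenic gene, KO minus WT on the log2(FPKM + 1) scale, with the 95% interval from limma (3 libraries per group). The interval of Srebf1, −1.65 to −0.32, is the only one that does not reach 0 before adjustment, and none of the 10 passed the adjusted threshold.

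By mean level in WT the order was Scd1 (335.1 FPKM), Acly (52.7), Mlxipl (44.3), Me1 (42.8), Acacb (42.2), Srebf1 (39.7), Fasn (31.8), Acaca (21.8), Scd2 (19.8) and Fads2 (4.38). Only Scd1 and Fads2 were separated from their neighbours in every WT library. From Acly down to Scd2, each gene's WT values overlapped those of the next gene. In KO the order after Scd1 was Acacb (67.8 FPKM), Acly (50.9), Fasn (36.8), Me1 (32.9), Mlxipl (29.4), Scd2 (24.1), Srebf1 (20.8), Acaca (15.7) and Fads2 (4.13).

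The spread within groups was wide for these genes. The pooled within-group SD of log2(FPKM + 1) was 0.98 for Fasn, 0.72 for Scd1, 0.65 for Acacb and 0.27 for Acly, the lowest of the 10. Ranked among all 13331 tested genes, these SDs stood between the 71.8th percentile (Acly) and the 99.2nd percentile (Fasn), so each of the 10 varied more between libraries of one group than most genes did. Set against the genes nearest in mean level, 500 on each side, Fasn stood at the 99.1st percentile and Acly at the 74.7th.

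The libraries that were high or low were shared by many of the 10 genes. Against each gene's mean over the 6 libraries, WT replicate 3 was above it in 9 genes and KO replicate 1 in 9, while WT replicate 1 was below it in 8, KO replicate 2 in 9 and KO replicate 3 in 8. WT replicate 2 was above in 6 and below in 4. The median deviation over the 10 genes was 0.52 in WT replicate 3, 0.38 in KO replicate 1, −0.18 in KO replicate 2, −0.33 in KO replicate 3 and −0.40 in WT replicate 1, on the log2(FPKM + 1) scale. Both groups thus held a high library and a low one. The values were not rescaled, and the summed FPKM of all genes also differed between libraries. It was lowest in WT replicate 1 (486449), highest in WT replicate 3 (556968) and 502103 in KO replicate 1, the lowest of the KO libraries. How many of all tested genes share the pattern was not counted. WT replicate 3 is the library with the highest erythroid markers and KO replicate 1 the one with the lowest muscle markers, and the part of these in the lipogenic levels was not tested. Srebf1 and Mlxipl departed from the pattern in WT replicate 1, where both lay above their mean (0.30 and 0.09) and the other 8 genes below.

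**Figure D3:**
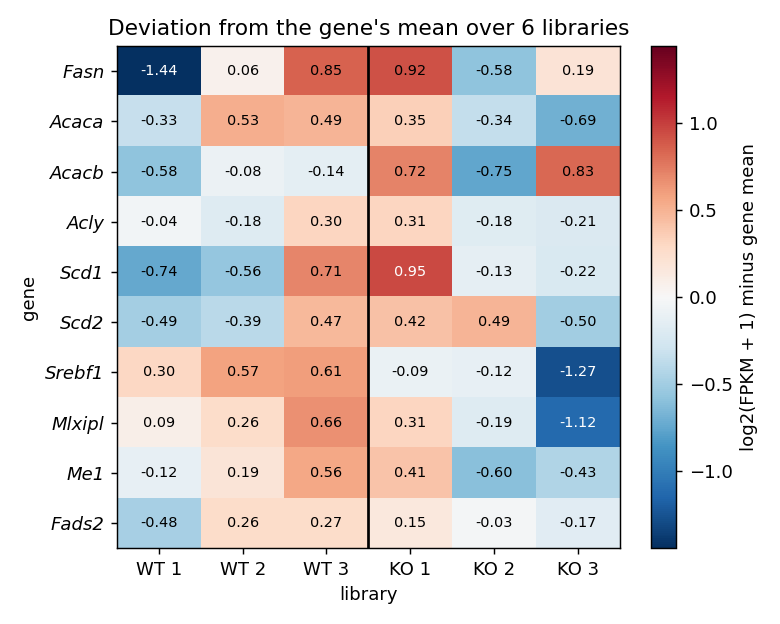
Deviation of log2(FPKM + 1) from each gene's mean over the 6 libraries, with the WT libraries left and the KO libraries right of the line, and red above and blue below the mean. WT replicate 3 and KO replicate 1 are red in 9 of 10 genes each, and the deepest blue cells are Fasn in WT replicate 1 (−1.44), Srebf1 in KO replicate 3 (−1.27) and Mlxipl in KO replicate 3 (−1.12).

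Enzyme levels were next set against Srebf1 in the same library, a comparison chosen after the values were seen. The ratio of Acacb to Srebf1 was 0.970, 1.13 and 1.07 in WT and 3.22, 1.16 and 8.23 in KO. That of Scd2 to Srebf1 was 0.423, 0.374 and 0.681 in WT and 1.09, 1.17 and 1.32 in KO. Both ratios, and those of Acly and Fads2, lay above the whole WT range in every KO library, which is 4 of the other 9 genes. Because Srebf1 itself was lower in every KO library, 72.1% of all tested genes met the same rule, so the share among the lipogenic genes is no larger than the background. The ratios of Mlxipl (0.991 to 1.28 in WT, 1.18 to 1.65 in KO) and of Acaca (0.404 to 0.620 in WT, 0.539 to 0.965 in KO) to Srebf1 overlapped between the groups. Against Srebf2, the SREBP gene of the sterol branch, Srebf1 had ratios of 5.66, 4.84 and 5.63 in WT and 5.31, 3.68 and 1.76 in KO. KO replicate 1 lay inside the WT range, and the mean log2 ratio differed by −0.72 (exact two-sided permutation test, p 0.2). Without KO replicate 3 that difference was −0.28.

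Around the 10 genes, 92 others were listed by role, and 83 of them passed the filter on low values. Of these, 3 passed the threshold, all lower in KO (3.61%, against 2.21% of all tested genes, or 1.01% for those lower in KO), and the values of 23 did not overlap between groups (27.7%, against 24.9%). Their median log2 fold change was −0.11. An unadjusted p under 0.05 was reached by 22 of the 83 (limma), against 19.2% of all tested genes, a share that stands beside each list's count below. The lists were chosen with earlier results of these data known, so these shares are no test of an excess. The 3 were Elovl3, Agpat2 and Lipt1, from separate lists.

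In the list of other elongases and desaturases, 1 of 13 tested genes passed, and 9 of the 13 were below 0. Elovl3, a fatty acid elongase typical of active brown fat, fell from 18.8, 23.6 and 25.9 FPKM in the 3 WT libraries to 4.67, 1.69 and 5.65 FPKM in the KO ones (limma, log2 fold change −2.34, adjusted p 0.0151). Every KO library was below every WT library. Elovl3 lost the threshold without WT replicate 2 (adjusted p 0.0740) and without WT replicate 3 (0.0815), and without the filter on low values (0.0707). Its relatives did not pass: Elovl6, which lengthens palmitate to stearate, lay at 22.6 to 27.7 FPKM in WT and 13.8 to 37.03 FPKM in KO (limma, log2 fold change −0.03, adjusted p 0.970). Hacd2, a dehydratase of the elongation cycle, had a log2 fold change of −0.50 (limma, adjusted p 0.161), and the desaturase relative Fads3 −0.57 (0.219).

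Among the other targets ascribed to SREBP-1c and ChREBP, 1 of 8 tested genes passed. Agpat2, an acyltransferase of triglyceride synthesis, fell from 231.8, 528.8 and 621.1 FPKM in the 3 WT libraries to 145.6, 101.3 and 53.5 FPKM in the KO ones (limma, log2 fold change −2.18, adjusted p 0.0417). The WT libraries differed widely, WT replicate 1 being the lowest of them, as it was for Fasn. Agpat2 lost the threshold without WT replicate 2 (adjusted p 0.173), WT replicate 3 (0.141), KO replicate 2 (0.0980) or KO replicate 3 (0.0953), without the filter (0.118), with robust eBayes (0.109) and with the replicate block (0.0680). Lpin1, a phosphatidate phosphatase of the same route, lay at 32.3, 34.8 and 29.04 FPKM in the 3 WT libraries, against 88.9, 44.3 and 157.98 FPKM in the KO ones without passing (limma, log2 fold change 1.39, adjusted p 0.0918, and 0.0314 without KO replicate 2). Gpam, the first acyltransferase, had a log2 fold change of −0.55 (limma, adjusted p 0.276). Thrsp, a lipogenic coactivator, was high in both groups, at 236.9 to 499.9 FPKM in WT and 334.4 to 466.7 FPKM in KO (limma, log2 fold change 0.10, adjusted p 0.887).

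No gene passed among 17 tested for SREBP processing and partners (limma, 0, with 3 at an unadjusted p under 0.05). Insig1, which holds the SREBP precursor in the endoplasmic reticulum, lay at 16.03, 20.3 and 18.5 FPKM in the 3 WT libraries, against 30.99, 26.6 and 40.5 FPKM in the KO ones. The groups did not overlap, and the log2 fold change of 0.79 missed the threshold (limma, adjusted p 0.0624). Insig1 passed with the filter at 5 FPKM (adjusted p 0.0454) and with robust eBayes (0.0494). Its escort Scap lay at 13.3 to 14.2 FPKM in WT and 11.7 to 18.4 FPKM in KO. Nfyc, a subunit of the CCAAT-binding NF-Y, had a log2 fold change of −0.56 (limma, adjusted p 0.0775, and 0.0483 without WT replicate 1), and Sp1, a general promoter factor, 0.47 (0.179).

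No gene passed among 10 tested of the ChREBP and LXR axis (limma, 0, with 5 at an unadjusted p under 0.05, against 19.2% of all tested genes). The values of 5 did not overlap between groups, 3 lower and 2 higher in KO, against 24.9% of all tested genes. The LXR genes Nr1h3 and Nr1h2 had log2 fold changes of −0.57 (limma, adjusted p 0.141) and 0.22 (0.540), and their partner gene Rxra 0.38 (0.240). Nr1h3 passed when WT replicate 1 was left out. Mlx, the obligate partner of ChREBP, lay at 21.2, 23.3 and 25.3 FPKM in the 3 WT libraries, against 14.5, 14.5 and 10.01 FPKM in the KO ones (limma, log2 fold change −0.81, adjusted p 0.0533). Mlx passed under 4 of the 16 alternatives, namely the filter at 5 FPKM (adjusted p 0.0378), robust eBayes (0.0419), median-of-ratios scaling (0.0451) and quantile normalization (0.0493). Mlxip, the paralog of ChREBP known as MondoA, pointed the other way, at 11.4 to 13.5 FPKM in WT and 15.5 to 19.8 FPKM in KO (limma, log2 fold change 0.50, adjusted p 0.118). Slc2a4, the insulin-regulated glucose transporter of fat and muscle, lay at 61.6, 59.6 and 80.5 FPKM in the 3 WT libraries, against 52.6, 28.7 and 15.6 FPKM in the KO ones (limma, log2 fold change −1.18, adjusted p 0.123, and 0.0424 without KO replicate 1). As with Srebf1 and Mlxipl, KO replicate 3 was its lowest library. Transcripts of Slc2a4 from fat and from muscle cannot be told apart in bulk RNA. Summed muscle markers were 330.9, 1446 and 1752 FPKM in the KO libraries and 1321 to 1930 FPKM in WT, and their part in the Slc2a4 level was not tested.

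No gene passed among 13 that supply acetyl-CoA and NADPH (limma, 0, with 3 at an unadjusted p under 0.05), of which 10 were below 0. G6pdx, the X-linked first enzyme of the pentose phosphate pathway, lay at 27.3, 41.3 and 40.5 FPKM in the 3 WT libraries, against 27.3, 15.7 and 18.6 FPKM in the KO ones (limma, log2 fold change −0.81, adjusted p 0.108). The groups did not overlap, but the lowest WT library (27.3 FPKM) and the highest KO library (27.26 FPKM) almost touched. Nnt, the mitochondrial transhydrogenase, had a log2 fold change of −0.54 (limma, adjusted p 0.115) and Mdh1, the cytosolic malate dehydrogenase, −0.36 (0.219). Slc25a1, the citrate carrier, lay at 53.7 to 128.9 FPKM in WT and 57.4 to 92.6 FPKM in KO.

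Of 12 tested genes for AMPK and other brakes on acetyl-CoA carboxylase, 0 passed (limma, with 4 at an unadjusted p under 0.05, against 19.2% of all tested genes). The values of 5 did not overlap between groups, 3 lower and 2 higher in KO, against 24.9% of all tested genes. AMPK phosphorylates and inactivates both carboxylases. The catalytic subunit gene Prkaa2 and the regulatory subunit gene Prkag2 had log2 fold changes of −0.60 (limma, adjusted p 0.156) and −0.65 (0.118), and the deacetylase gene Sirt1 0.82 (0.0969, and 0.03996 without WT replicate 1). In the separate mitochondrial fatty acid synthesis pathway, which makes the precursor of lipoic acid, 1 of 10 genes passed. Lipt1, a lipoyltransferase, fell from 10.8, 16.99 and 12.1 FPKM in the 3 WT libraries to 6.97, 4.85 and 5.43 FPKM in the KO ones (limma, log2 fold change −1.07, adjusted p 0.0391). It lost the threshold in each fit that left out a library other than WT replicate 1, with adjusted p-values of 0.0557 to 0.140. It also lost it without the filter (0.0979), with scaling to a common sum (0.0501) and with the replicate block (0.0627). The synthase gene Oxsm (−0.46, limma, adjusted p 0.283) and the transacylase gene Mcat (−0.26, 0.386) did not pass.

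**Figure D4:**
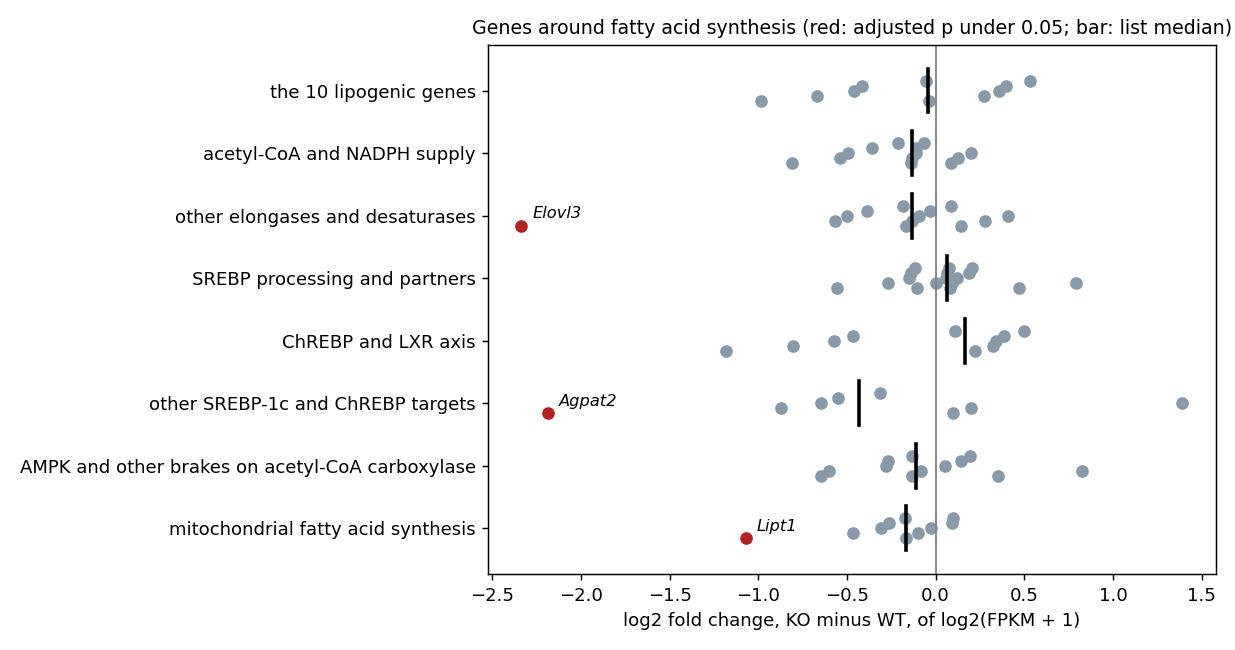
Log2 fold change, KO minus WT on the log2(FPKM + 1) scale, of every tested gene of the 10 lipogenic genes and of 7 lists around them, with each list's median as a bar and genes past an adjusted p of 0.05 in red. Elovl3 (−2.34), Agpat2 (−2.18) and Lipt1 (−1.07) are the red points, and the row of the 10 lipogenic genes holds none.

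Markers of other cell types that make fatty acids or shared the dissection were measured beside these results. Of all tested genes, 24.9% did not overlap between groups, 19.2% had an unadjusted p under 0.05 (limma) and 2.21% passed. The counts of markers below stand beside these shares. Of 10 macrophage markers 10 were above 0, 5 did not overlap between groups and 0 passed (limma, with 5 at an unadjusted p under 0.05). Their summed levels were 140.0 to 207.8 FPKM in WT and 198.3 to 271.4 FPKM in KO. Summed Schwann cell markers lay at 57.4 to 68.8 FPKM in WT and 50.7 to 75.6 FPKM in KO, and 3 of the 10 stayed under 0.5 FPKM in every library. Summed epidermal markers lay at 5.42 to 7.41 FPKM in WT and 9.73 to 13.7 FPKM in KO, with 5 of 9 under 0.5 FPKM in every library. Of the 4 epidermal markers tested, 3 did not overlap (Sbsn and Dmkn higher in KO, Krt10 lower) and 1 passed. The basal keratins Krt5 and Krt14 lay at 0.14 FPKM or less in every library. Sbsn, a gene of the upper epidermis, rose from 2.90, 3.32 and 3.04 FPKM in the WT libraries to 7.09, 8.04 and 4.98 FPKM in those of KO mice (limma, log2 fold change 0.89, adjusted p 0.0427). Of 10 fibroblast and preadipocyte markers, 3 were below 0 in log2 fold change. In this list, 1 did not overlap and passed (limma, with 3 at an unadjusted p under 0.05). Summed levels were 763.7 to 979.5 FPKM in WT and 821.4 to 1324 FPKM in KO. The marker that passed was Ly6a, the gene of the surface antigen Sca-1. It rose from 19.8, 29.8 and 28.3 FPKM to 49.1, 50.7 and 55.9 FPKM (limma, log2 fold change 0.99, adjusted p 0.0332). Pi16, of the same list, pointed the other way (limma, log2 fold change −0.79, unadjusted p 0.0271, adjusted p 0.199). The calls of Sbsn and Ly6a were lost without the filter and without WT replicate 2, WT replicate 3, KO replicate 1 or KO replicate 2. That of Sbsn was also lost without WT replicate 1 and with the replicate block, and that of Ly6a without KO replicate 3 (limma, adjusted p 0.0569 to 0.155 over both). Of 10 endothelial markers 0 passed (limma, with 1 at an unadjusted p under 0.05), with summed levels of 588.3 to 793.4 FPKM in WT and 611.8 to 688.2 FPKM in KO. The part of these cells in the lipogenic values was not tested.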

How the data were processed

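Bulk RNA-seq of 3 WT and 3 KO libraries was analysed from 1 deposited table, whose columns were matched to libraries by title. The authors deposited FPKM values, per the file headers, rounded to 2 decimals. The submitters' processing notes name HISAT2 2.0.4, Bowtie2 2.2.5, DESeq2 and mm10, without roles. The counting rule, strand handling and filters are not given in the sources used here.

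Values were taken as log2(FPKM + 1) without further scaling. Genes averaging 0.5 FPKM or more over the 6 libraries were fitted with limma 3.58.1 in R 4.3.3 (eBayes with trend, no covariates), with Benjamini-Hochberg adjustment over all tested genes. The fit was tested on simulated data. Depth was estimated from the steps between low values of single-transcript genes of 500 to 1300 nt, with an offset of 50 nt: 78.9% to 82.5% of the values lay within 0.2 of a whole read. FPKM are not counts, and no count model was run. No intervals for counting error are given. Promoters and positions came from RefSeq (GRCm38.p6), with 19202 of 19241 genes matched by Entrez identifier, and coding sequences from GENCODE vM21.

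The genes and lists were chosen with earlier results of these data known. The genes named are the 10, every gene of a list past the threshold and the 3 smallest p-values of each list. Srebf2 is named for its ratio to Srebf1. Scap, Thrsp, Elovl6, Slc25a1, Nr1h2, Nr1h3, Rxra, Scd3, Scd4 and the markers Fabp4, Adipoq, Pparg, Cidea, Plin1, Lep, Cidec, Krt5, Krt10, Krt14, Dmkn, Sbsn, Ly6a and Pi16 were named after their values were seen. The alternatives for Plin1, Lep, Sbsn and Ly6a were also chosen then. Dsg1a, an epidermal marker, was not analysed here. Alternatives were other pseudocounts, filters, scalings and variance settings, the replicate number as a block and each library left out.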

Additional observations from a re-analysis of the deposited data

How the results depend on the processing

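Across 16 alternatives (pseudocounts, filters, scalings, variance settings, a replicate block and each library left out) 0 of the 10 lipogenic genes passed the threshold. Srebf1 had adjusted p-values (limma) of 0.0872 to 0.329 and log2 fold changes of −1.19 to −0.60. Fads2 falls below the filter at a mean of 5 FPKM and has no value there. Signs turned only when 1 library was left out: Fasn ran from −0.28 to 0.87, Acly from −0.22 to 0.083 and Fads2 from −0.28 to 0.0904. Of the other 7 genes each kept its sign in all 16. The 3 other pathway genes past the threshold became 0 without a filter, 5 with a filter at 5 FPKM (adding Insig1 and Mlx), 4 with quantile normalization or median-of-ratios scaling (adding Mlx), 4 with robust eBayes (adding Insig1 and Mlx, losing Agpat2) and 0 to 6 with 1 library left out. Leaving out WT replicate 2 or WT replicate 3 gave 0, KO replicate 3 gave 1 and WT replicate 1 gave 6. Of all tested genes 295 passed, against 35 without a filter, 191 when scaled to a common sum and 31 (without WT replicate 3) to 370 (without WT replicate 1) with 1 library left out. The cause was not tested, beyond fewer or more genes and fewer samples entering the fit. Log2 ratios with 1 library left out ran from −0.12 to 0.46 for Scd1 to Scd2, −1.49 to −0.49 for Acaca to Acacb and −1.08 to −0.28 for Srebf1 to Srebf2.

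WT and KO share replicate numbers, but deviations of same-numbered libraries correlated at only 0.068, 0.043 and 0.043, so the numbers were not taken as pairs. With the replicate block, 0 of the 10 genes, 1 other pathway gene (Elovl3) and 167 of all genes passed, 135 of them among the 295. The adjusted p of Srebf1 was then 0.128.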
